A study of Mus musculus with 45 samples.

Results

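The transcripts of 10 genes that were higher in the striatum of homozygous Shank3-mutant mice than in that of wild-type (WT) mice were examined across 3 forebrain regions and 3 genotypes. The genes were Gdpd5, Lamp5, Kremen1, Hhipl1, Sema4a, Csdc2, Mpp3, Snai3, Nxf7 and Mir670hg, out of 18135 genes in the table. They were selected on their normalised counts in Shank3-HM and WT striatum, so those values describe how they were chosen and are no test of them. Of all 18135 genes, 16482 reached a mean normalised count of 10 in the striatum and were tested there, and all 10 chosen genes were among them. Poly(A) RNA was measured from the prefrontal cortex (cortex hereafter), hippocampus and striatum of male C57BL/6J mice at 13 weeks of age. Each region was taken from WT, heterozygous (Shank3-HT) and homozygous (Shank3-HM) mice, the mutants lacking Shank3 exons 14 to 16 on 1 or on both copies, with 5 samples in each of 9 groups and 45 in all. The labels call the homozygous mice knock-out, and the deposited table has a genotype code KI, which was taken as these mice because the other codes were WT and HT. No region was enriched for a cell type, and the deletion was present in every cell of the mutants, so a change of level within cells cannot be told apart from a change in the share of a cell type. The labels number the samples within a group and do not tie a number to a mouse, so p-values measure the spread between these samples.

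Shank3 is a scaffold protein of excitatory synapses and is abundant in the striatum, whose main cells are inhibitory spiny projection neurons that receive glutamatergic input from the cortex and thalamus. The chosen genes do not form a known pathway. Gdpd5, Lamp5, Kremen1, Hhipl1 and Sema4a encode proteins of the cell surface, of vesicles or of the extracellular space. Csdc2 and Mpp3 encode an RNA-binding protein and a membrane scaffold, Snai3 encodes a zinc finger repressor, Nxf7 a member of the RNA export factor family, and Mir670hg is a non-coding RNA.

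In the GENCODE annotation of the GRCm38 genome the 10 genes lay at separate loci. Gdpd5 spans chr7:99381414-99461877 on the plus strand, Lamp5 chr2:136052239-136069917 on the plus strand and Kremen1 chr11:5191552-5261558 on the minus strand. Hhipl1 lies at chr12:108306270-108330869 (plus), Sema4a at chr3:88435959-88461182 (minus) and Csdc2 at chr15:81936759-81950941 (plus). Mpp3 lies at chr11:101999652-102028461 (minus), Snai3 at chr8:122454208-122460733 (minus) and Nxf7 at chrX:135579555-135598777 (minus). Mir670hg, a lincRNA gene of 104283 bases at chr2:94160636-94264918 on the minus strand, overlaps the genes of 4 microRNAs, Mir670 and Mir129-2 among them. Hhipl1 overlaps an annotated antisense gene (4930478K11Rik) and Snai3 lies within the span of Gm20388 on the opposite strand. The library kit keeps the strand, but the strand setting of the quantification is not given in the sources used here. At most 3.84% of the 31-base words of a gene's transcripts, the share in Nxf7, occurred in transcripts of another gene, 77 of its 105 shared words in Gm15019, so reads of Nxf7 could be split with that locus. Snai3 shared none.

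The Mir670hg transcripts host the hairpin of miR-670, which lies inside 5 of the 7 annotated host transcripts and in an exon of none. The microRNA itself was not measured, since the libraries hold poly(A) RNA. Its mature arms (RefSeq, GRCm38.p6) are shown because they are what the host gene is named for, with the seed, bases 2 to 8, in capitals. Neither seed occurs in another of the 1738 mature mouse microRNAs of the table.
mmu-miR-670-5p: aUCCCUGAguguauguggugaa
mmu-miR-670-3p: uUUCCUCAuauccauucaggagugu

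Snai3 belongs to the Snail family of zinc finger repressors, which bind the E-box CAGGTG, so the promoters of the other chosen genes were searched for this motif and for TGACGTCA (CRE), TGANTCA (AP-1 site) and GGGCGG (GC box), on both strands. RefSeq windows of 250 bases before and 50 after the transcription start were matched for 5 of the 10 genes (Lamp5, Hhipl1, Sema4a, Nxf7 and Mir670hg), with 13 windows in all. CAGGTG occurred in 2 of these 13 windows, 1 of Lamp5 and 1 of Hhipl1, and in 20.2% of all 32851 windows. TGANTCA occurred in the 4 overlapping windows of Mir670hg, of the 13, and in 7.81% of all windows. GGGCGG occurred in 3 windows, all of Sema4a, and in 35.7% of all windows. TGACGTCA occurred in none of the 13 and in 1.79% of all. The stretches before the annotated gene that hold the E-box and the AP-1 letters are shown 5′ to 3′ on the strand of the gene (RefSeq, GRCm38.p6), with the motif in capitals. The E-box is read on the opposite strand in both. A match describes the letters and is not evidence of binding.
Lamp5, chr2:136052089-136052238, plus strand: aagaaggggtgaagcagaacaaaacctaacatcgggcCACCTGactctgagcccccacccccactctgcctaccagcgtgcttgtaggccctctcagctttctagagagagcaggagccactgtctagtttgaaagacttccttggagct
Hhipl1, chr12:108306020-108306269, plus strand: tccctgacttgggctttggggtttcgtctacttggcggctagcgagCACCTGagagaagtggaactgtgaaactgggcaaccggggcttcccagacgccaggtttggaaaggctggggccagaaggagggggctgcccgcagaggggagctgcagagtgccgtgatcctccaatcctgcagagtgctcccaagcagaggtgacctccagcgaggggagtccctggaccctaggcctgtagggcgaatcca
Mir670hg, chr2:94265104-94265353, minus strand: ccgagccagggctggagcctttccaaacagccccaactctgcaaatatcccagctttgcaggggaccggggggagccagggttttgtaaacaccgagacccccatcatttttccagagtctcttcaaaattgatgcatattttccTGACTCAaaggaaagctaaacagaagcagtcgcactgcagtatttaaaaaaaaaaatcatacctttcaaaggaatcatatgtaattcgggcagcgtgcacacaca

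Values are normalised counts per gene as deposited. The values of a sample summed to between 26118607 and 29568983, which is after normalisation and does not give the read depth. Shank3 itself followed the labels in every region. In the striatum its normalised counts were 11309 to 12740 for WT, 7959 to 9323 for Shank3-HT and 4569 to 6242 for Shank3-HM mice. In the cortex they were 6985 to 8717, 5748 to 6607 and 3689 to 4446. In the hippocampus they were 7566 to 8468, 5611 to 6108 and 3678 to 4020. The genotypes did not overlap in any region, and the remaining counts come from outside the deleted exons or were not placed by exon. The summed level of 4 striatal marker genes (Drd1, Drd2, Adora2a and Ppp1r1b) was 61196 to 85177 in striatal samples, and 1154 to 2592 in the cortical and hippocampal samples except Shank3-HM cortex replicate 2, where it was 15575. That sample had the lowest sum of 4 cortical markers (Tbr1, Neurod6, Slc17a7 and Cux2) among Shank3-HM cortex samples, 28066 against 44731 to 52417. In the striatum the cortical marker sum ranged from 472 to 9921, and the highest was that of WT replicate 5, which also had the lowest striatal sum (61196). Shank3-HT striatum replicate 5 had a choroid plexus marker sum of 69822, against 476 to 1619 in the WT striatum. In the hippocampus this sum was 3308 to 125781 for WT, 1406 to 34440 for Shank3-HT and 6386 to 61935 for Shank3-HM samples, so the genotypes overlapped, and its part in the hippocampal values was not tested.

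In the striatum all 5 Shank3-HM samples lay above all 5 WT samples for each of the 10 genes, which is how they were chosen, and this was so for 1.10% of all genes tested. On the log2(value + 1) scale the difference between Shank3-HM and WT ranged from 0.44 for Gdpd5 to 1.56 for Nxf7, with a median of 0.55, beside a median of 0.0007 over all genes tested. With limma and Benjamini-Hochberg adjustment, 9 of the 10 lay past the threshold of 0.05, as 0.158% of all genes tested did in this direction. Csdc2, at an adjusted p of 0.0172, was the last of them, and Mpp3, at 0.0511, lay just outside. Among genes that were not chosen, Dmkn (adjusted p = 0.0464) was the last raised gene inside the threshold and Gm21955 (0.0514) was the first raised gene outside it after Mpp3. Without Shank3-HM replicate 2 only 5 of the 10 (Gdpd5, Lamp5, Kremen1, Snai3 and Nxf7) stayed past the threshold, while the calls over all genes fell from 30 to 12. In that fit Hhipl1, Sema4a, Csdc2 and Mir670hg had adjusted p values of 0.0522 to 0.0584. Their log2 differences were 0.54, 0.82, 0.43 and 1.21, in that order.

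**Figure D1:**
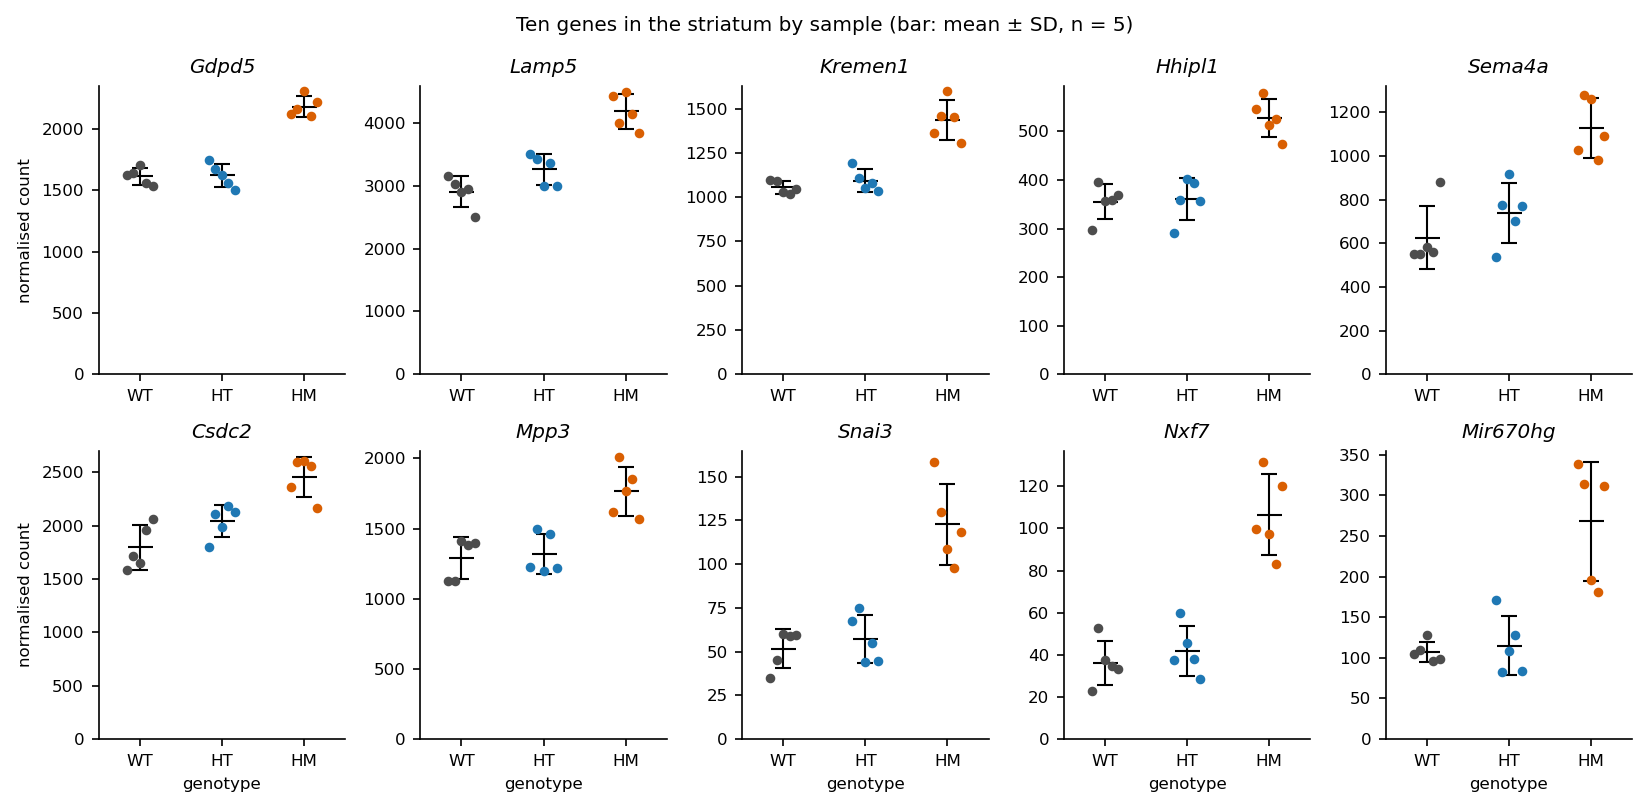
Normalised counts (y axis, from 0) of the 10 genes in the striatum by genotype (x axis), with each point a sample and bars showing the mean ± SD of 5 samples. All Shank3-HM points lie above all WT points in each panel, as the genes were chosen to, while the Shank3-HT points overlap the WT points in every panel.

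Gdpd5 encodes GDE2, a membrane enzyme of the glycerophosphodiester phosphodiesterase family that sheds GPI-anchored proteins from the neuronal surface. Its striatal normalised counts were 1623, 1643, 1712, 1560 and 1534 in WT replicates 1 to 5. They were 1749, 1674, 1627, 1564 and 1505 in Shank3-HT, and 2122, 2164, 2313, 2108 and 2219 in Shank3-HM samples. The lowest Shank3-HM sample was 1.23 times the highest WT sample, and the spread within each genotype was small (SD 70.5, 94.7 and 83.2, n = 5). The log2 difference of Shank3-HM from WT was 0.44 (95% interval 0.33 to 0.54).

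Lamp5, also called BAD-LAMP, is a brain member of the lysosome-associated membrane protein family and marks a class of cortical interneurons. Normalised counts in the striatum were 3153, 3020, 2901, 2955 and 2496 in WT samples. Shank3-HT samples held 3503, 3432, 3000, 3368 and 3001, and Shank3-HM samples 4434, 4004, 4487, 4143 and 3843. The 3 genotypes were ordered, with 3 of 5 Shank3-HT samples above all WT samples and all of them below the lowest Shank3-HM sample. Its lowest WT value was in replicate 5, the sample with the highest cortical marker sum. Lamp5 was 2.44 times higher in WT cortex than in WT striatum, and the part of cortical tissue in this value was not tested. The Shank3-HM mean was 144% of the WT mean (log2 difference 0.53, 95% interval 0.39 to 0.67).

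Kremen1 is a receptor for Dickkopf proteins that removes the Wnt co-receptor LRP6 from the cell surface. Normalised counts were 1096, 1092, 1028, 1016 and 1048 in WT striatum. They were 1195, 1109, 1049, 1078 and 1034 in Shank3-HT and 1360, 1460, 1598, 1451 and 1305 in Shank3-HM striatum. The Shank3-HM samples were spread more widely (SD 112, n = 5) than the WT samples (SD 36.9, n = 5), and the Shank3-HT samples overlapped the WT samples. The log2 difference of Shank3-HM from WT was 0.44 (0.32 to 0.56).

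Hhipl1 encodes a secreted protein related to the hedgehog-interacting protein. In the striatum its normalised counts were 296, 397, 357, 359 and 368 for WT, 290, 359, 403, 393 and 357 for Shank3-HT, and 545, 579, 512, 525 and 475 for Shank3-HM samples. WT and Shank3-HT samples covered nearly the same range, and the lowest Shank3-HM sample was 1.20 times the highest WT sample. The log2 difference was 0.57 (0.37 to 0.77).

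Sema4a is a transmembrane semaphorin that signals through plexins in axon guidance and in immune cells. Its counts were 551, 553, 586, 561 and 883 for WT, 536, 775, 917, 704 and 772 for Shank3-HT, and 1026, 1281, 1264, 980 and 1093 for Shank3-HM striatum. WT replicate 5 stood apart from the other 4 WT samples, and its cortical marker sum was 9921 against 1433 to 2898 in those 4. The highest Shank3-HT value, in replicate 3, was also in the Shank3-HT sample with the highest cortical marker sum (7600), whereas Shank3-HM replicate 1, with a similar sum (7571), was below the Shank3-HM mean of 1129. The part of cortical tissue in these values was not tested. Sema4a was 180% of WT in Shank3-HM striatum (log2 difference 0.87, 0.57 to 1.16), and the difference rose to 1.0 without WT replicate 5.

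Csdc2, also known as PIPPin, is a brain RNA-binding protein with a cold shock domain. Its normalised counts were 1585, 1720, 1646, 1961 and 2066 for WT, 1802, 2114, 1987, 2186 and 2124 for Shank3-HT, and 2362, 2598, 2602, 2558 and 2162 for Shank3-HM striatum. This was the narrowest of the 10 separations, with the lowest Shank3-HM sample at 1.05 times the highest WT sample and below 1 Shank3-HT sample (2186). The log2 difference was 0.46 (0.29 to 0.62). Its adjusted p rose above 0.05 in 6 fits with 1 of the 10 compared samples left out, without Shank3-HM replicate 2, 3 or 4 or WT replicate 1, 2 or 3, at adjusted p values of 0.0546 to 0.0626.

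Mpp3 is a membrane-associated guanylate kinase scaffold of the palmitoylated MPP family. Striatal counts were 1130, 1125, 1411, 1384 and 1398 for WT, 1226, 1494, 1201, 1460 and 1219 for Shank3-HT, and 1622, 2010, 1765, 1854 and 1571 for Shank3-HM samples. The WT samples fell at 2 levels, replicates 1 and 2 at 1130 and 1125 and the other 3 at 1384 to 1411, and the Shank3-HT samples likewise fell at 1201 to 1226 or at 1460 and 1494. The log2 difference of Shank3-HM from WT was 0.45 (0.26 to 0.64).

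Snai3 and Nxf7 had low counts and large ratios. Snai3 is the third Snail repressor, and its striatal normalised counts were 34.7, 45.2, 60.1, 58.9 and 59.4 for WT, 67.2, 75.1, 44.0, 54.8 and 44.8 for Shank3-HT, and 158, 130, 108, 98.0 and 118 for Shank3-HM samples. The Shank3-HM mean was 237% of the WT mean (log2 difference 1.24, 0.83 to 1.65). Nxf7 is a member of the nuclear RNA export factor family on the X chromosome. Its counts were 23.0, 52.5, 37.6, 34.5 and 33.1 for WT, 37.4, 59.8, 45.5, 38.0 and 28.3 for Shank3-HT, and 99.9, 131, 97.2, 83.3 and 120 for Shank3-HM samples. Its Shank3-HM mean was 295% of the WT mean (log2 difference 1.56, 1.10 to 2.02), the highest ratio of the 10 genes.

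Mir670hg, the non-coding RNA, had an SD in Shank3-HM striatum of 73.5 around a mean of 268 (n = 5). Normalised counts were 104, 110, 128, 95.6 and 98.2 in WT, and 171, 82.5, 108, 129 and 84.1 in Shank3-HT samples. In Shank3-HM samples they were 338, 313, 196, 181 and 312. Replicates 1, 2 and 5 thus lay well above replicates 3 and 4, which were still above all WT and Shank3-HT samples, the highest Shank3-HT sample reaching 171 beside the lowest Shank3-HM sample at 181. The log2 difference was 1.27 (0.84 to 1.71).

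The comparison of Shank3-HT with WT striatum asks whether loss of 1 copy moved the same genes. It shares the 5 WT samples with the comparison that chose the genes. Lamp5 and Csdc2 were the only 2 of the 10 genes with an unadjusted p under 0.05, and none passed the adjusted threshold (lowest adjusted p = 0.656, limma). Over all genes tested, 7.43% had an unadjusted p under 0.05 and 0.00607% passed the adjusted threshold. The Lamp5 log2 difference was 0.17 ± 0.07 (SE; unadjusted p = 0.0227) and that of Csdc2 0.19 ± 0.08 (unadjusted p = 0.0258), beside 0.53 and 0.46 in Shank3-HM samples. Sema4a had the highest difference, 0.25, with a 95% interval of -0.05 to 0.54. The other 7 genes lay between 0.01 (Gdpd5) and 0.21 (Nxf7), the 95% interval of Gdpd5 being -0.10 to 0.11. Leaving out single samples moved Sema4a between 0.16 and 0.38, Nxf7 between 0.06 and 0.35 and Snai3 between 0.01 and 0.23. In no gene were all Shank3-HT samples above all WT samples, which held for 0.552% of all genes tested. Shank3-HT replicate 5 (choroid plexus marker sum 69822) was below its genotype mean for 8 of the 10 genes.

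The cortical and hippocampal samples took no part in the choice. None of the 10 genes tested in the cortex passed the adjusted threshold in Shank3-HT or Shank3-HM mice, and none of the 8 tested in the hippocampus did (limma, lowest adjusted p = 0.878). Over all genes tested the share that passed was 0.0121% in Shank3-HM cortex, 0 in Shank3-HT cortex and 0.00603% in either hippocampal comparison. At an unadjusted p under 0.05 there was 1 of the 10 genes in Shank3-HM cortex, beside 5.49% of all genes, and 0 in Shank3-HT cortex (2.68% of all genes). Of the 8 genes tested in the hippocampus there were 0 in Shank3-HT (5.26% of all genes) and 0 in Shank3-HM mice (4.73%). The median log2 difference of the genes was -0.07 in Shank3-HM cortex and 0.11 in Shank3-HT cortex, over 10 genes, and below 0.01 in size in both hippocampal comparisons, over 8 genes. The 95% intervals in the hippocampus reached no higher than 0.49, and their upper ends in Shank3-HM mice were 0.10 for Lamp5, 0.11 for Hhipl1, 0.09 for Csdc2, 0.04 for Mpp3, 0.17 for Kremen1, 0.34 for Sema4a, 0.42 for Gdpd5 and 0.49 for Mir670hg. Between cortex and hippocampus the genotype differences were compared by an interaction term (limma). For the 8 genes tested in both regions the adjusted p was at least 0.999 in both mutants. Snai3 and Nxf7 were near 0 in the hippocampus and entered this fit only through the other regions, so their terms are not read. Mir670hg in Shank3-HM mice differed by 0.60 ± 0.38 (log2, SE). The difference from the striatum was not tested, since the striatal values chose the genes.

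**Figure D2:**
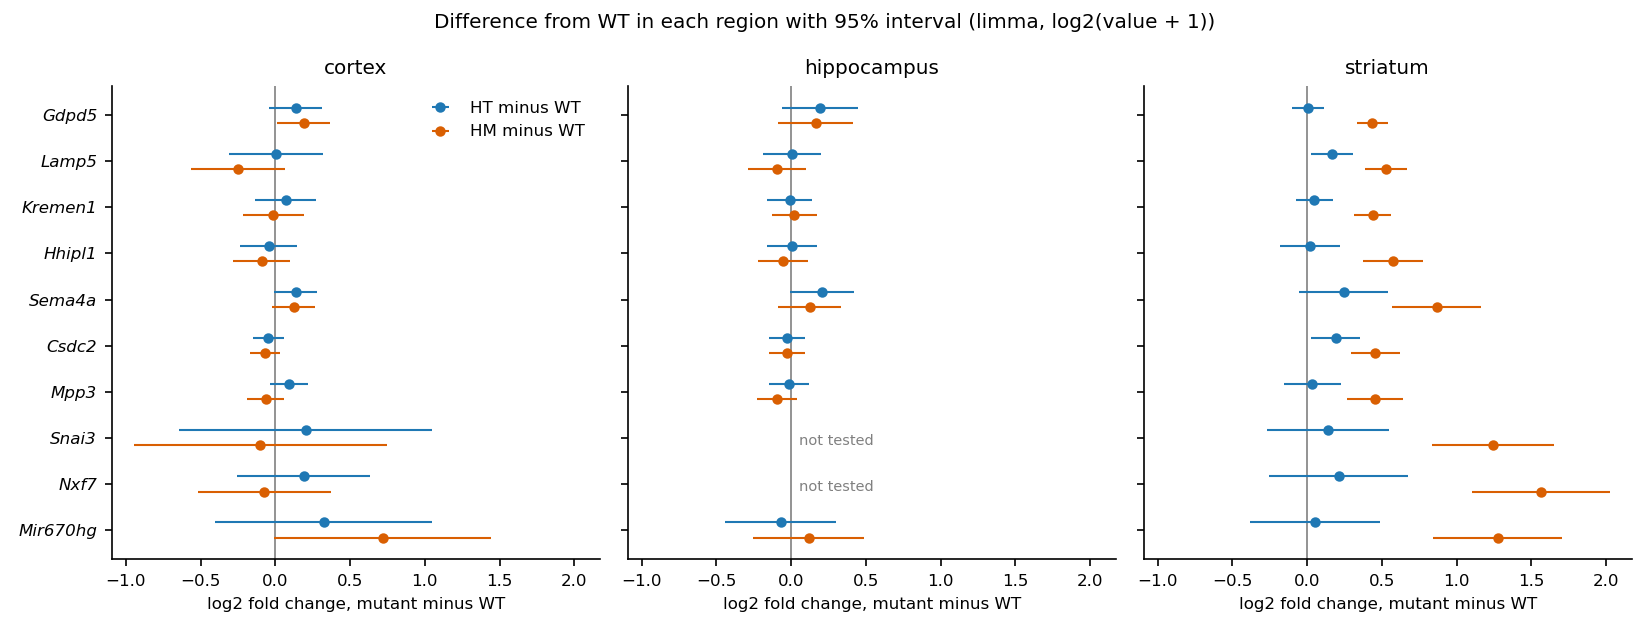
Log2 difference from WT (x axis) of each of the 10 genes (y axis) in Shank3-HT and Shank3-HM mice in the 3 regions, with 95% intervals from limma. The Shank3-HM points lie between 0.44 and 1.56 in the striatum and between -0.25 and 0.72 in the cortex, and Snai3 and Nxf7 were too low to be tested in the hippocampus.

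The gene with an unadjusted p under 0.05 in Shank3-HM cortex was Gdpd5 (log2 difference 0.19, 95% interval 0.01 to 0.36, unadjusted p = 0.0365, adjusted p = 0.878). Its normalised counts were 684, 669, 621, 726 and 609 in WT and 724, 933, 742, 675 and 714 in Shank3-HM cortex. The value of 933 was in replicate 2, the sample with the striatal marker sum of 15575, and Gdpd5 was higher in the striatum than in the cortex of WT mice. Without that sample the difference was 0.11, and the part of striatal tissue in it was not tested. The same sample had the lowest Lamp5 count of Shank3-HM cortex, 3882 against 5884 to 7975, and the log2 difference of Lamp5 was -0.25 with it and -0.09 without it.

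Mir670hg counts in Shank3-HM cortex were 56.3, 223, 56.3, 137 and 57.5, beside 41.8 to 71.1 in WT and 48.8 to 115 in Shank3-HT cortex. Replicates 2 and 4 stood above all WT samples and the other 3 did not. The log2 difference was 0.72 (-0.01 to 1.44, adjusted p = 0.878), and 0.39 without replicate 2. Replicate 4 had a striatal marker sum of 1842, within the range of the other cortex samples.

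**Figure D3:**
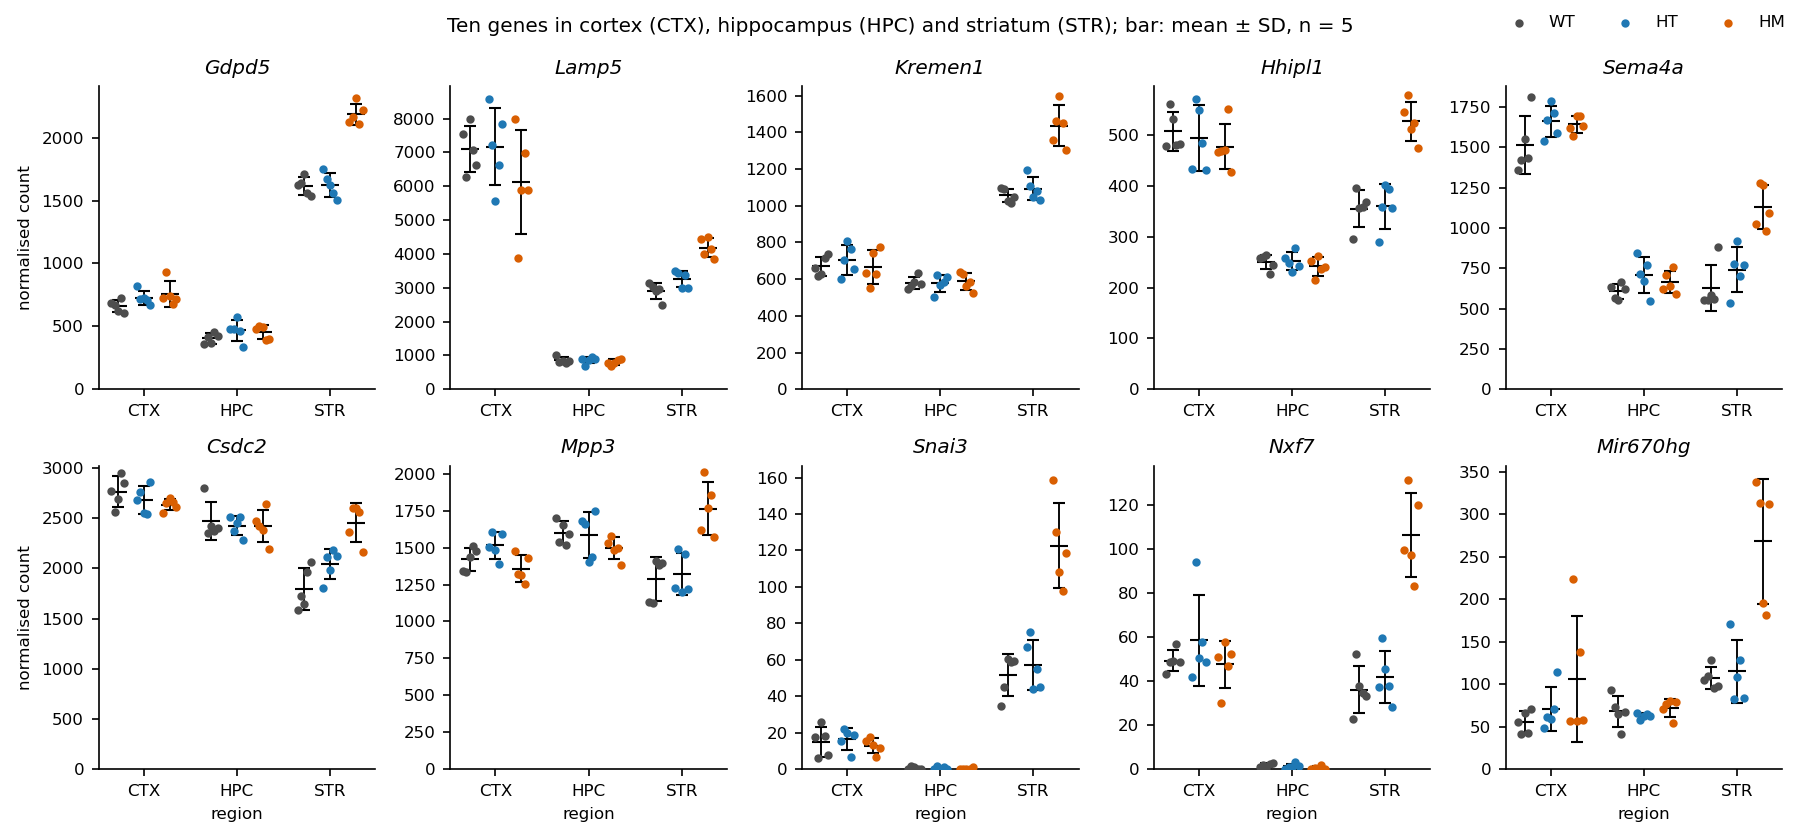
Normalised counts (y axis, from 0) of the 10 genes in the cortex (CTX), hippocampus (HPC) and striatum (STR), with each point a sample, colours for genotype and bars for the mean ± SD of 5 samples. Among WT samples Gdpd5, Kremen1, Snai3 and Mir670hg are highest in the striatum, Lamp5, Hhipl1, Sema4a, Csdc2 and Nxf7 have their highest mean in the cortex, and Snai3 and Nxf7 are near 0 in the hippocampus.

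The WT samples showed how the 10 genes differ between regions. WT cortex and WT striatum differed for 8 of the 10 genes (limma over all 45 samples, adjusted p under 0.05, as for 59.3% of all genes), WT hippocampus and striatum for 9 (56.1% of all genes), and WT cortex and hippocampus for 8 (46.6% of all genes). Snai3 and Nxf7 are in both counts that involve the hippocampus, where they were near 0, and reached the mean needed for the test only through the other regions. The study's text gives as many mice per genotype as samples in a group, so the regions may share mice, whereas the fit takes all samples as independent. These shares over all genes are high, so a regional difference was not particular to the chosen genes. The first and second comparisons use the WT striatal samples that also took part in the choice.

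Gdpd5 was highest in the striatum, at 1614 ± 70.5 (SD, n = 5) against 662 ± 47.6 in the cortex and 405 ± 41.7 in the hippocampus, a 3.99-fold difference between striatum and hippocampus (adjusted p = 2.79e-22). Kremen1 followed the same order, at 1056 ± 36.9, 670 ± 52.7 and 580 ± 33.3. The order of cortex and hippocampus for Kremen1 (adjusted p = 0.0255) was lost without cortex WT replicate 4 (0.0675) or 5 (0.0841) or hippocampus WT replicate 1 (0.0622). It was also lost with samples scaled to the same total (0.161). Mir670hg was also highest in the striatum, at 107 ± 12.9, 1.95 times the cortex (55.1 ± 13.4) and 1.57 times the hippocampus (68.1 ± 18.3), and its cortex and hippocampus were not told apart (adjusted p = 0.397). The difference between hippocampus and striatum (adjusted p = 0.0297) was lost without hippocampus WT replicate 4 (0.114), the sample with the choroid plexus marker sum of 125781, or striatum WT replicate 3 (0.0691). Scaling to the same total ended this difference too (0.0674).

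Lamp5 had the steepest regional range of the genes with counts in every sample, 7098 ± 685 in the cortex, 2905 ± 248 in the striatum and 857 ± 92.2 in the hippocampus (SD, n = 5), with the cortex 8.28 times the hippocampus (adjusted p = 2.66e-24). Hhipl1 fell in the same order, at 508 ± 38.1, 355 ± 36.6 and 251 ± 14.5. Sema4a was 2.42 times higher in the cortex (1515 ± 180) than in the striatum (627 ± 144), and the hippocampus (608 ± 46.7) was not told apart from the striatum (adjusted p = 0.883). Csdc2 was highest in the cortex (2766 ± 151), then in the hippocampus (2472 ± 188) and lowest in the striatum (1796 ± 208). The Csdc2 difference between cortex and hippocampus (adjusted p = 0.0303) rose above 0.05 in 6 fits with 1 sample left out, without cortex WT replicate 4 or 5 or hippocampus WT replicate 2, 3, 4 or 5, reaching at most 0.0888. It was 0.164 with quantile normalisation, 0.294 with equal totals and 0.0625 with Shank3-HT in place of WT samples.

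Mpp3 varied least between regions. Its WT counts were 1599 ± 77.5 in the hippocampus, 1420 ± 79.5 in the cortex and 1290 ± 148 in the striatum. The hippocampus was above the striatum (adjusted p = 0.000341), and the cortex was told apart from neither the striatum (adjusted p = 0.0907) nor the hippocampus (0.0541). Both Mpp3 values lay near the threshold. The cortex was below the hippocampus at 0.00623 with equal totals, 0.0351 with quantile normalisation, 0.0381 with samples of the same genotype and number blocked as 1 mouse, 0.0430 without cortex WT replicate 4 and 0.0464 without hippocampus WT replicate 4. It was above the striatum at 0.0389 with equal totals, 0.0177 with Shank3-HT in place of WT samples and 0.0480 without striatum WT replicate 3 (adjusted p, limma).

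Snai3 and Nxf7 were all but unmeasured in the hippocampus. Snai3 counts there were 0 to 1.68 for WT, 0 to 1.94 for Shank3-HT and 0 to 0.919 for Shank3-HM samples, and Nxf7 counts were 0 to 2.61, 0 to 3.03 and 0 to 2.06. Neither reached the mean of 10 needed for a test between genotypes there, and no fold against the hippocampus is given. In WT mice Snai3 was 3.43 times higher in the striatum (51.7 ± 11.3) than in the cortex (15.1 ± 8.23, adjusted p = 2.01e-05), whereas Nxf7 in the cortex (49.4 ± 4.86) and striatum (36.1 ± 10.7) was not told apart (adjusted p = 0.204).

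The striatal Shank3-HM mean was above the WT cortex mean for 7 of the 10 genes and above the WT hippocampus mean for 9. Lamp5 (4182 against 7098), Sema4a (1129 against 1515) and Csdc2 (2456 against 2766) stayed below the WT cortex. The region with the highest mean was the striatum for 4 of the genes in WT and in Shank3-HT mice and for 7 in Shank3-HM mice, the genes that joined being Hhipl1, Mpp3 and Nxf7. These counts rest on the striatal values that chose the genes.

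Markers of cell types were set beside the striatal values. None of 131 marker genes in 15 lists passed the adjusted threshold between Shank3-HM and WT striatum (limma), and 12 of them had an unadjusted p under 0.05, as 7.43% of all genes tested did. All 12 oligodendrocyte markers had a positive log2 difference, with a median of 0.21 and 1 gene at an unadjusted p under 0.05. Their summed level was 197251 to 262002 for WT, 215235 to 364812 for Shank3-HT and 219068 to 333504 for Shank3-HM samples, so the genotypes overlapped. Shank3-HM replicate 2 held the highest oligodendrocyte sum of its group and the highest Hhipl1, Sema4a, Mpp3 and Nxf7 counts. It did not hold the highest counts of Gdpd5, Lamp5, Kremen1, Csdc2, Snai3 or Mir670hg. Shank3-HT replicate 3, with the sum of 364812, had the highest Hhipl1 and Sema4a but the lowest Lamp5, Mpp3 and Snai3 counts of its group. The 19 spiny projection neuron markers had a median difference of 0.0021, with 10 positive. Of 4 tested hippocampal markers 3 were positive (median 0.36), and the sum of the list was 7416 to 11127 for WT and 5737 to 9979 for Shank3-HM samples. Of the 10 markers of striosomes, patches of the striatum rich in opioid receptors, 8 were positive (median 0.11), and their sum was 32360 to 37403 for WT and 36077 to 41240 for Shank3-HM samples. No marker in the lists had a mean under 1 in a striatal group. Among 15 cortical and claustral markers other than Lamp5, 6 were positive (median -0.04), and the sum of the list without Lamp5 was 6486 to 17102 for WT, 4245 to 12660 for Shank3-HT and 5009 to 13623 for Shank3-HM striatum. The part of cell type shares in the differences of the 10 genes was not tested.

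To describe the surroundings of the genes, the other members of their families and pathways were counted in the comparison of Shank3-HM with WT striatum. Of 132 such genes tested in 9 lists, 1 rose, Scrt2, and none fell, where 0.182% of all genes passed in either direction. The lists were drawn up with earlier results of these data known, so this count is a description and no test of the lists. An unadjusted p under 0.05 was found for 11 of the 132, beside 7.43% of all genes tested. The list medians lay between -0.05 and 0.07, beside 0.0007 over all genes. Scrt2 is a neuronal zinc finger repressor of the Scratch branch of the Snail superfamily. Its mean was 1128 ± 132 in WT, 1286 in Shank3-HT and 1550 ± 64.8 (SD, n = 5) in Shank3-HM striatum, a log2 difference of 0.46 ± 0.08 (SE, adjusted p = 0.0160, limma). It lost the threshold without Shank3-HM replicate 2, and also in the fit without the intensity trend. The other 2 tested genes of this list did not pass, Snai2 having a log2 difference of -0.28 (adjusted p = 0.897).

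Among 43 tested Wnt receptors, Dickkopf proteins and related genes other than Kremen1, none passed and 15 were positive. Tcf7, a nuclear effector of Wnt signalling, had a log2 difference of -0.27 (adjusted p = 0.533), and Rspo1, a secreted amplifier of Wnt signalling, 0.35 (0.537). None of 20 hedgehog pathway genes passed. The ligand Shh had a difference of 0.51 (adjusted p = 0.533), at a mean of 40.5 for WT, 74.6 for Shank3-HT, and 58.4 for Shank3-HM samples, and the co-receptor Gas1 one of -0.28 (0.724). Of 30 semaphorins and receptors none passed. The plexin Plxna4 came closest, at 0.26 (adjusted p = 0.384), and Sema6b had -0.14 (0.723).

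None of 11 MPP, Lin7 and related scaffold genes passed, with 0.27 for Mpp7 (adjusted p = 0.508) and -0.89 for Mpp4 (0.588), which was measured at a mean of 14 in WT samples. The 11 RNA export genes held no call. The export cofactor Nxt2 had 0.18 (adjusted p = 0.524), and Nxf1, the main export receptor of mRNA, 0.13 (0.792). In the 6 cold shock domain genes, Carhsp1, the closest relative of Csdc2, had 0.10 (0.802) and Ybx1 -0.04 (0.919). The phosphodiesterases Gde1 and Gpcpd1 had 0.07 (0.856) and 0.06 (0.921), in a list of 5 tested genes. The lysosomal proteins Lamp2 and Lamp1 had 0.09 (0.864) and 0.04 (0.933), in a list of 3.

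How the 10 genes varied together between striatal samples was measured as the correlation of their log2 deviations from the genotype mean, over the 15 striatal samples, for all 45 pairs. The genotype difference is removed by this step, so it does not enter. The median Pearson r was 0.07, beside 0 over all pairs of genes tested in the striatum, and 26 of the 45 pairs were positive. Leaving out single samples moved the median between 0.0233 (without Shank3-HT replicate 5) and 0.141 (without Shank3-HM replicate 3), so its size rested on single samples. An r of at least 0.5 was found in 6 pairs, 13.3%, beside 6.05% of all pairs. No pair passed the Benjamini-Hochberg adjustment over the 45 pairs by Pearson r or by Spearman rho (100000 permutations within genotypes, lowest adjusted p = 0.224), and 8 pairs had an unadjusted p under 0.05 by r and 5 by rho.

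**Figure D4:**
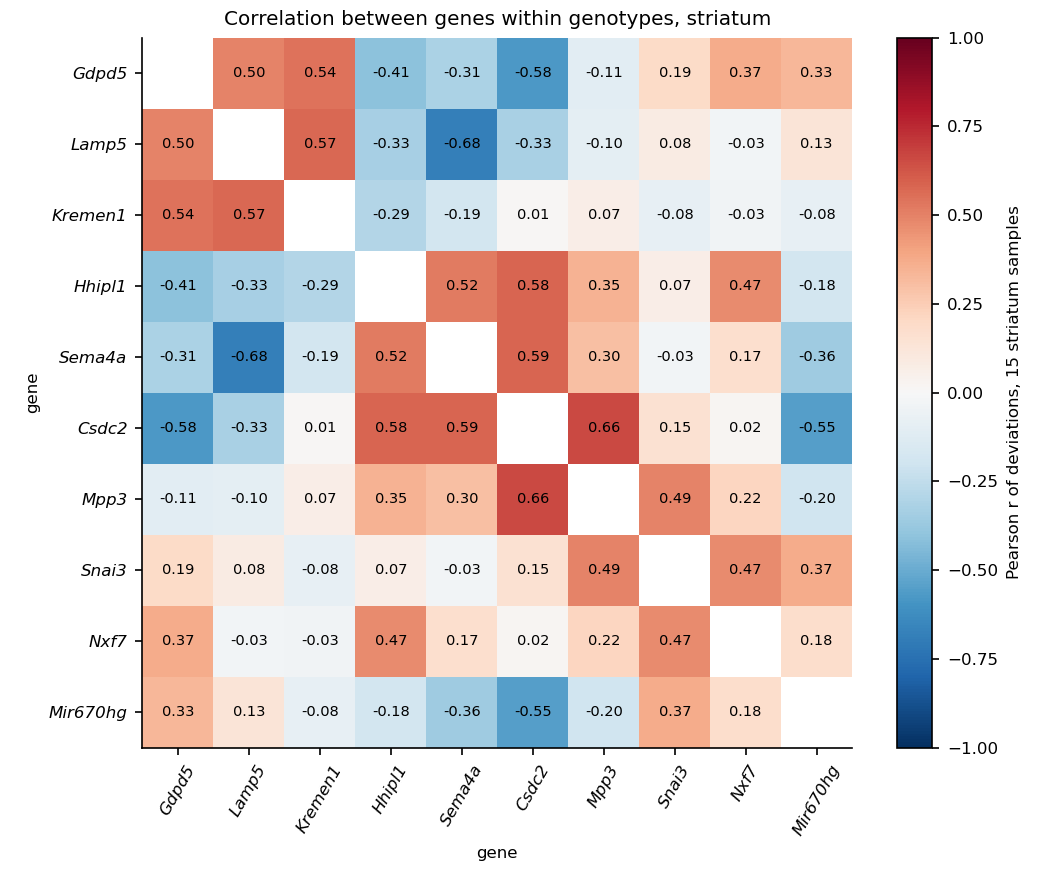
Pearson r (colour and printed values) between the log2 deviations of each pair of the 10 genes (both axes) from their genotype means over 15 striatal samples. Gdpd5, Lamp5 and Kremen1 have values of 0.50 to 0.57 with each other, and Hhipl1, Sema4a and Csdc2 values of 0.52 to 0.59, but no pair passed the adjusted threshold.

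The 3 highest values all involved Csdc2. Csdc2 and Mpp3 had an r of 0.66 (rho 0.59, permutation p = 0.0202 for r and 0.0395 for rho, adjusted 0.224 and 0.372), with deviations of the same sign in 13 of 15 samples, and 0.59 without the 2 samples farthest from the median of Csdc2. Sema4a and Csdc2 had an r of 0.59 (rho 0.45, permutation p = 0.0349 and 0.115, adjusted 0.224 and 0.518), which was 0.25 without WT replicate 5 and Shank3-HT replicate 1, so it rested on those samples. Hhipl1 and Csdc2 had an r of 0.58 (rho 0.42, permutation p = 0.0347 and 0.142, adjusted 0.224 and 0.535), which was 0.24 without Shank3-HT replicate 1 and WT replicate 1 and likewise rested on them.

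The 3 lowest values were negative. Lamp5 and Sema4a had an r of -0.68 (rho -0.57, permutation p = 0.0185 and 0.0413, adjusted 0.224 and 0.372), and -0.57 without WT replicate 5 and Shank3-HM replicate 5. WT replicate 5, with the highest cortical marker sum, was the lowest WT sample for Lamp5 and the highest for Sema4a. Both genes were higher in WT cortex than in WT striatum (2.44 times for Lamp5 and 2.42 times for Sema4a), and the part of cortical tissue was not tested. Gdpd5 and Csdc2 had an r of -0.58 (rho -0.62, permutation p = 0.0346 and 0.0234, adjusted 0.224 and 0.372), and -0.49 without Shank3-HT replicates 5 and 1. Csdc2 and Mir670hg had an r of -0.55 (rho -0.49, permutation p = 0.0244 and 0.0605, adjusted 0.224 and 0.389), and -0.35 without Shank3-HM replicate 5 and Shank3-HT replicate 1.

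The number of genes above the genotype mean differed between samples. In Shank3-HM striatum replicate 2 was above the genotype mean for 8 of the 10 genes, replicate 3 for 6, replicate 1 for 4, and replicates 4 and 5 for 3 each. In Shank3-HT striatum replicate 2 was above the mean for 9 genes and replicate 5 for 2, and in WT striatum the counts ran from 3 in replicate 1 to 7 in replicate 3. The median deviation of a sample lay between -0.17 and 0.12 on the log2 scale. Gdpd5, Lamp5 and Kremen1 were below the mean in Shank3-HT replicate 5 and above it in Shank3-HT replicate 1, which was at the same time the lowest Shank3-HT sample for Hhipl1, Sema4a and Csdc2.

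**Figure D5:**
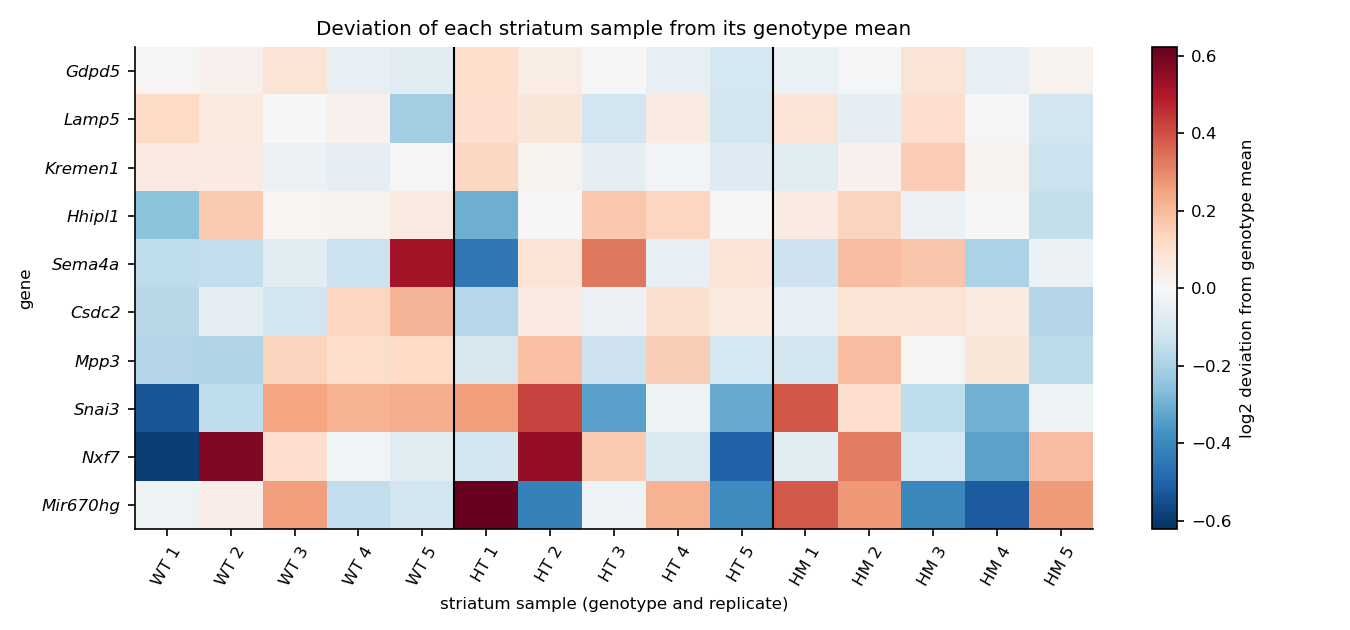
Log2 deviation (colour) of each of the 15 striatal samples (x axis) from the mean of its genotype for the 10 genes (y axis). The rows of Snai3, Nxf7 and Mir670hg hold the strongest colours, and no column has 1 colour throughout.

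The genes whose deviations from the group mean were most like those of each of the 10 over all 45 samples were none of the other 9. For Lamp5 they were Dmtn (Pearson r = 0.87) and Brinp1 (0.80), for Csdc2 Taok2 (0.74) and Gga1 (0.68), and for Gdpd5 Abi3bp (0.69). For Kremen1 they were Ppp6r1 (0.69) and Wdr13 (0.66), for Sema4a Pcbp4 (0.65) and Chd5 (0.64), and for Hhipl1 Dnajc27 (0.60) and Arhgef1 (0.59). Mpp3 was most like Ripor1 (0.61) and Ptprn (0.60), and Mir670hg most like Tpbgl (0.67) and Fndc9 (0.64). The values of the low genes Snai3 (0.59 with Gm44210 and 0.55 with Slc12a3) and Nxf7 (0.56 with Plekhm1 and 0.53 with Il17ra) were the lowest. These are the highest values among 16708 genes, the samples share libraries and dissection, and no test is attached. Over the 15 striatal samples alone, Arhgef1 kept an r of 0.91 with Hhipl1, whereas Fndc9 with Mir670hg had 0.11.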

How the data were processed

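Poly(A) RNA of 45 samples was sequenced from libraries of a strand-keeping kit. According to the submitters' processing notes the authors used Salmon 1.1.0, R 3.6.2 and DESeq2 1.26.0 with GRCm38. The authors' methods state GC bias correction, import with Tximport and DESeq2 scaling, with other versions of R and DESeq2 than those notes. The deposited signal values are normalised counts with decimals for 18135 genes in 1 table, so depth is unknown and no count model was fitted. Gene symbols were matched by Ensembl ID, with 15 genes left without one. Values were tested as log2(value + 1) with limma 3.58.1 in R 4.3.3 (trend, 3 genotypes of a region in a fit, or 9 groups for regions), for genes with a mean of at least 10, with Benjamini-Hochberg adjustment over all genes tested and a threshold of 0.05. Fold changes on this scale understate the change of low genes. The tests were checked on simulated data. The 10 genes and all lists were chosen with earlier results of these data known. Named genes were the 10 genes, Shank3, per family list each gene past the threshold and the 2 others with the smallest p (1 besides Scrt2 is named in its list), the 3 highest and 3 lowest pairs, and the 2 most alike genes per gene. A few genes of these lists are not reported here, and the marker lists were used without them. Dmkn and Gm21955 were named after their values were seen. Alternatives were other scalings, filters, pseudocounts, no trend, a replicate block, other samples and leaving out each sample.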

Additional observations from a re-analysis of the deposited data

Results flagged for a closer look

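In 90 groups of 5 samples, 5 held a sample far from the other 4, where chance gives about 1 in 20 groups. They were Gdpd5 in Shank3-HM cortex replicate 2 (933, the others 675 to 742), Sema4a in WT striatum replicate 5 (883, the others 551 to 586), Lamp5 in WT hippocampus replicate 1 (1017, the others 780 to 844), Csdc2 in the same sample (2806, the others 2357 to 2418) and Snai3 in Shank3-HM hippocampus replicate 5 (0.919, the others 0). With the others at 0 any value above 0 would stand apart, so the Snai3 value says nothing. In the first the striatal marker sum, and in the second the cortical marker sum, was the highest of its group. WT hippocampus replicate 1 had a hippocampal marker sum of 11839, against 18594 to 21995 in the other 4 WT samples, and the highest cortical marker sum (44980). The cortical marker sum was high throughout the WT hippocampus (35328 to 44980, beside 48208 to 52190 in the WT cortex). It therefore does not tell cortical from hippocampal tissue. The part of other tissue in the flagged values was not tested.

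Csdc2 was lower than the WT mean in every Shank3-HM cortex sample (log2 difference -0.068) and higher in every Shank3-HM striatum sample (0.46), and Mpp3 was lower in every Shank3-HM hippocampus sample (-0.098) and higher in every Shank3-HM striatum sample (0.45). These differences between regions were not tested, and the striatal values had chosen the genes.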

How the results depend on the processing

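Of the values set out above, the counts of the chosen genes past the threshold between mutants and WT in the cortex and hippocampus were 0 under each alternative run. With the filter of a mean of at least 10, only 8 of the 10 genes had a test in the hippocampus. In Shank3-HM striatum without the intensity trend 18 genes passed, 15 of them raised and 0 of the family genes, and Sema4a (adjusted p = 0.0522) and Csdc2 (0.0619) lost the threshold. Mpp3 passed with samples scaled to the same total (0.0419), a mean of at least 100 (0.0463) and the replicate block (0.0437). Leaving out single samples gave 5 to 9 of the 10 genes in Shank3-HM striatum, 12 to 33 genes in all, 10 to 27 of them raised, 0 to 1 family genes and 0 to 2 marker genes, and a median pair r of 0.0233 to 0.141. The lowest counts were without Shank3-HM replicate 2, and the 2 marker genes without WT replicate 5. Same-numbered WT and mutant samples of a region correlated at -0.13 to 0.15. Between WT and Shank3-HT striatum 3 of 5 pairs were over 0.1, and in each other comparison at most 1 of 5. Differently numbered samples were not set beside them, so these values cannot show whether the numbers pair the samples. The replicate block gave 10 of the 10 genes and 39 genes in all. Same-numbered samples of a genotype in 2 regions correlated at 0.038 to 0.204 between hippocampus and striatum (8 of 15 pairs over 0.1), at -0.1 to 0.225 between cortex and striatum and at -0.092 to 0.208 between cortex and hippocampus, so not every pair passed 0.1, and a block of genotype and number changed the call of Mpp3 between cortex and hippocampus (adjusted p = 0.0381) and no other regional call. With equal totals 2 small differences turned sign, Lamp5 in Shank3-HT hippocampus (-0.0002) and Sema4a between WT hippocampus and striatum (0.0902), and Mir670hg between cortex and hippocampus was 0.10 with Shank3-HT in place of WT samples. Equal totals also ended the WT differences of Mir670hg between hippocampus and striatum (adjusted p = 0.0674) and of Kremen1 (0.161) and Csdc2 (0.294) between cortex and hippocampus. Differences that turned sign when 1 sample was left out ranged, in Shank3-HT striatum, from -0.0197 to 0.0345 (Gdpd5), -0.0452 to 0.0938 (Hhipl1), -0.10 to 0.16 (Mir670hg) and -0.0124 to 0.0691 (Mpp3). In Shank3-HT hippocampus they ranged from -0.0413 to 0.0217 (Csdc2), -0.0316 to 0.0351 (Hhipl1), -0.037 to 0.0378 (Kremen1), -0.0343 to 0.0804 (Lamp5), -0.23 to 0.0516 (Mir670hg) and -0.052 to 0.027 (Mpp3), and in Shank3-HM hippocampus from -0.0596 to 0.0188 (Csdc2), -0.0092 to 0.059 (Kremen1) and -0.0454 to 0.24 (Mir670hg). In Shank3-HT cortex they ranged from -0.0999 to 0.0008 (Hhipl1), -0.0646 to 0.0906 (Lamp5) and -0.0595 to 0.47 (Snai3), in Shank3-HM cortex from -0.0722 to 0.0513 (Kremen1), -0.15 to 0.081 (Nxf7) and -0.36 to 0.13 (Snai3), and for Sema4a between WT hippocampus and striatum from -0.0621 to 0.11. The cause was not tested.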
